A study of Mus musculus with 4 samples.

Results

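The endoplasmic reticulum (ER) chaperone genes examined here were 10 loci given by symbol: Calr, Canx, Hspa5, Hsp90b1, Hyou1, Pdia3, Pdia4, Pdia6, Sdf2l1 and the transcription factor gene Xbp1. All 10 were found among the 17956 single-locus rows of the expression table, and all 10 passed the filter on low values. RNA was sequenced from bone-marrow Lin-Kit+ cells, the fraction that lacks the antigens of mature blood lineages and carries the Kit receptor, with 2000000 cells per library. The 2 KO libraries came from C57BL/6 mice of genotype Asxl1-/-, and the 2 WT libraries from wild-type C57BL/6 mice. The labels give no age, no treatment and no statement that the replicates were separate animals, so p-values measure the spread between these libraries. ASXL1 is a chromatin protein whose gene is a frequent target of mutation in human myeloid cancers, and the comparison asks how transcripts differ in progenitors without it.

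Secreted and membrane proteins enter the ER unfolded. BiP, the product of Hspa5, binds exposed hydrophobic stretches with the help of co-factors, the lectins calreticulin and calnexin hold newly glycosylated proteins, and protein disulfide isomerases form and rearrange disulfide bonds. When unfolded protein accumulates, the sensors IRE1, PERK and ATF6 start the unfolded protein response, in which ATF6 and the spliced form of XBP1 raise chaperone transcription. Granulocyte progenitors load the ER heavily because they make granule proteins, and the calreticulin gene is itself mutated in human myeloproliferative neoplasms.

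The recovered depth was 83586916 and 76688583 reads in the KO libraries and 46597871 and 49764454 in the WT libraries. Asxl1 matched the labels, with normalised read counts of 146 and 135 in KO and 9742 and 9472 in WT (log2 fold change -6.09 ± 0.09, limma adjusted p = 8.89e-06). Xist (merged with Tsix) was high in replicate 1 of each genotype (89290.1 in KO, 103006 in WT) and low in replicate 2 (147 in KO, 2123 in WT). The replicates of a genotype therefore differ in sex-linked transcripts, and values within each replicate pair are given below. Of the progenitor genes, Kit (a locus merged with AK047175) had 18483 and 18889 in KO and 17739 and 16149 in WT. Across the 8 progenitor genes listed, 1 was higher in KO (Gfi1b), 3 were lower (Cd34, Flt3 and Csf1r) and 4 were not called. Over all tested loci 11.9% were called higher and 8.97% lower. The merged locus with Cd34 had 6530 and 6544 in KO and 11174 and 12007 in WT (log2 -0.83 ± 0.05, limma adjusted p = 0.00131). The lineage antigen gene Itgam had 45203 and 42795 in KO and 24640 and 26902 in WT, so transcripts of a lineage antigen were present in every library.

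All 9 chaperone genes of the set were lower in KO, whereas Xbp1 was not called. The 9 genes other than Xbp1 fell by 0.26 to 0.74 on the log2 scale, and together their normalised counts in KO were 74.3% of those in WT. In the limma fit over all 13764 tested loci, 9 of the 10 genes passed the adjusted threshold of 0.05 as lower and 0 as higher, against 8.97% of all tested loci called lower and 11.9% called higher. Among the 7911 loci with a mean value of at least 1000, a level that all 10 genes exceed, 9.58% were called lower. The median log2 fold change was -0.41 over the 10 genes and -0.01 over all tested loci. Both KO libraries lay below both WT libraries for 9 of the 10 genes, as they did for 33.6% of all tested loci. In bulk RNA, fewer cells of a type and less RNA per cell cannot be told apart.

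**Figure D1:**
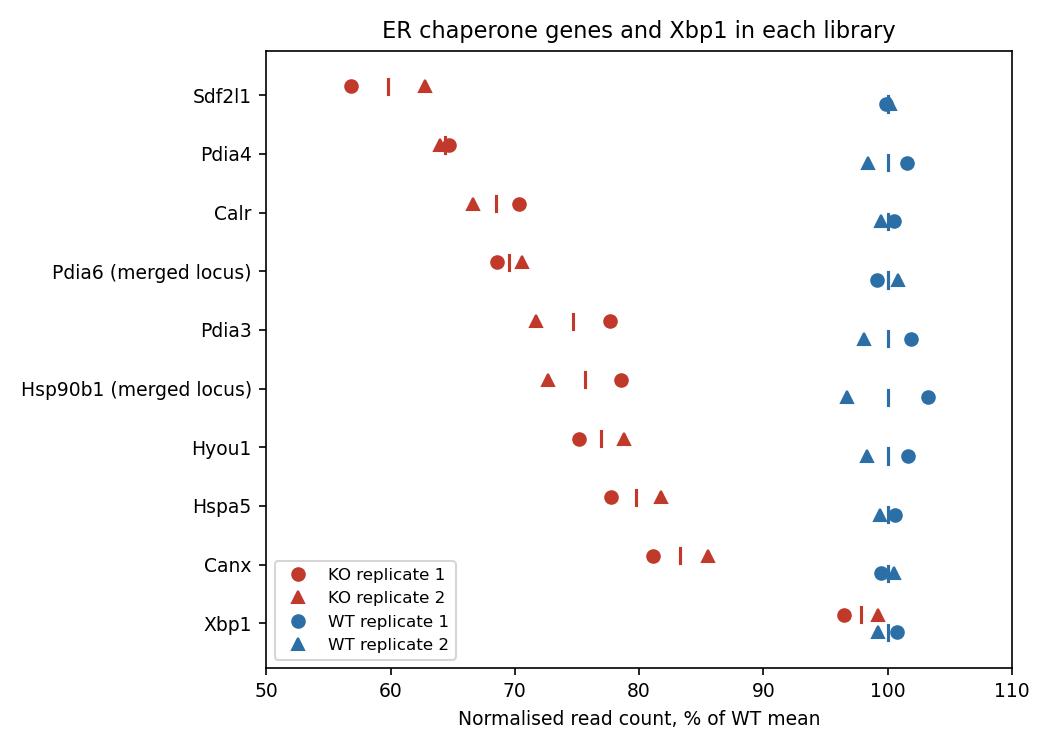
Normalised read count of each gene in each library, as a percentage of the WT mean (circles replicate 1, triangles replicate 2, red KO, blue WT, vertical ticks group means). Both KO libraries lie left of both WT libraries for 9 genes, from Sdf2l1 with a KO mean at 59.8% of WT to Canx at 83.3%, while the libraries overlap for Xbp1 at 97.9%.

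The promoters of these genes were searched for the ER stress response element (ERSE). Through this sequence ATF6, and XBP1, with the CCAAT-binding factor NF-Y, are known to activate chaperone genes. The letters searched were CCAAT, then 9 bases of any kind, then CCACG, on both strands, in RefSeq promoter windows of 300 bases (250 upstream and 50 downstream of the annotated start, GRCm38.p6). The table held 9 of the 10 genes, all but Hyou1. An exact match was present in 5 of the 9, namely Calr, Canx, Hspa5, Hsp90b1 and Pdia6, and in 0.119% of all 32851 windows. Counted by gene, 0.137% of 27025 genes had a match. Hsp90b1 had 2 matches. The second element, ERSE-II (ATTGG, 1 base of any kind, then CCACG, on both strands, with the last 5 letters in common with the ERSE), was found in 0 of the 9 and in 0.0365% of all windows. Pdia3 and Pdia4 came within 1 mismatch of the ERSE, as did 1.504% of all windows, while the nearest stretch had 2 mismatches in Sdf2l1 and 3 in Xbp1. The ERSE is known from chaperone genes, so its presence here does not depend on the KO and WT values. A match is a description of these letters only. The Calr window upstream of the start is shown whole and the other matches with 20 flanking bases. Each is written 5′ to 3′ on the strand of its gene, with the element in capitals. In Calr and in the second Hsp90b1 stretch the element lies on the opposite strand and so reads as its reverse complement.
Calr, chr8:84846932-84847181, minus strand: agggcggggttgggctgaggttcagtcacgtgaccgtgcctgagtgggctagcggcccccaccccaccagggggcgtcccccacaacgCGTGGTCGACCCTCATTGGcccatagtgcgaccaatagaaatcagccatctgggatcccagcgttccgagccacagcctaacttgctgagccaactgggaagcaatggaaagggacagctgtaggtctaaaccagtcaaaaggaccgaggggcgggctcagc
Canx, chr11:50325780-50325838, minus strand: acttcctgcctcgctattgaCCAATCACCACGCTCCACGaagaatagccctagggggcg
Hspa5, chr2:34772005-34772063, plus strand: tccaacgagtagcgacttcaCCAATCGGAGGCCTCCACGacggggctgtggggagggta
Hsp90b1, chr10:86705618-86705676, minus strand: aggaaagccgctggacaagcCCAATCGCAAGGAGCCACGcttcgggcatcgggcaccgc
Hsp90b1, chr10:86705513-86705571, minus strand: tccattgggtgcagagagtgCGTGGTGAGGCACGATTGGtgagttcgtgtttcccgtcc
Pdia6, chr12:17266471-17266529, plus strand: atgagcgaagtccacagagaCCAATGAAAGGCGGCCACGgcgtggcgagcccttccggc

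**Figure D2:**
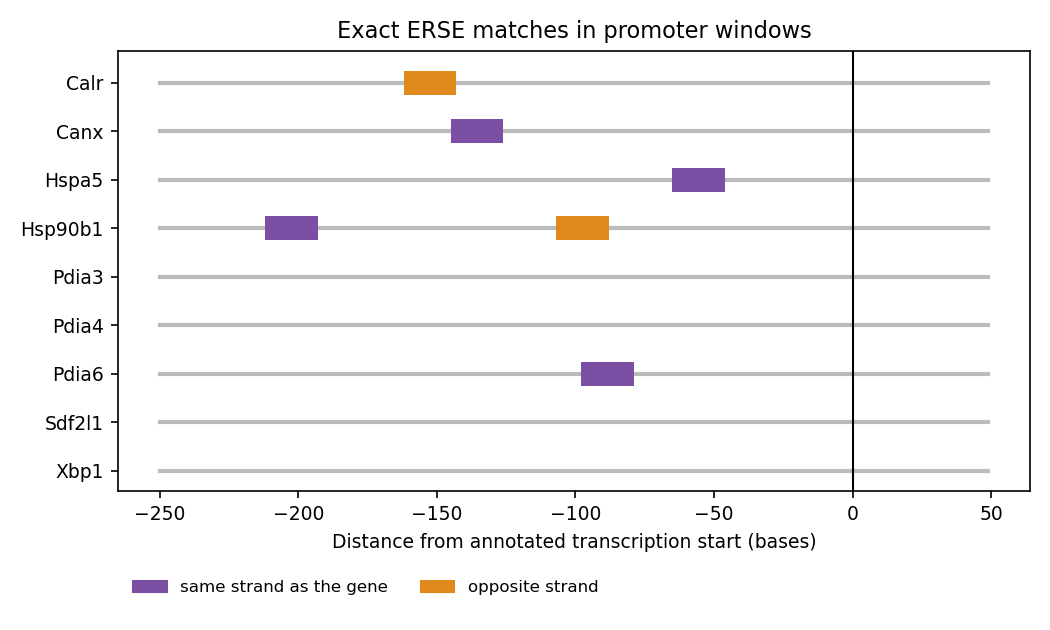
Position of exact ERSE matches in the RefSeq promoter windows of 9 genes, with the distance from the annotated start in bases on the horizontal axis and 1 gene per line. The nearer end of the element lay 47 bases upstream of the start in Hspa5, 80 in Pdia6, 89 and 194 in Hsp90b1, 127 in Canx and 144 in Calr, and Pdia3, Pdia4, Sdf2l1 and Xbp1 had no exact match.

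The lectin chaperones were lower together. Calr (chromosome 8, 87365986 to 87370830, mm9) encodes calreticulin, the soluble ER lectin that also buffers calcium. It was the most abundant of the genes, with normalised read counts of 78449 and 74275 in KO and 112131 and 110900.3 in WT. The KO libraries differed by a few percent and both were well below the WT libraries. The log2 fold change was -0.55 ± 0.05 (limma adjusted p = 0.00211), and KO stood at 68.5% of WT. Canx (chromosome 11, 50107458 to 50139175) encodes calnexin, the membrane-bound counterpart of calreticulin. Its counts were 37040.4 and 39036 in KO, against 45414 and 45879 in WT. The groups did not overlap, but Canx had the smallest difference among the 9 called genes (log2 -0.26 ± 0.05, limma adjusted p = 0.0146). The 95% intervals of the fold changes were -0.66 to -0.43 for Calr and -0.38 to -0.15 for Canx, and they did not overlap.

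Pdia3 (chromosome 2, 121239637 to 121264422) encodes the disulfide isomerase that calreticulin and calnexin recruit to glycoproteins. It had 42469 and 39214 in KO and 55697 and 53643 in WT. Both KO values were below both WT values, and the log2 fold change was -0.42 ± 0.05 (limma adjusted p = 0.0062).

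The gene of BiP and those of its co-factors among the 10, Hyou1 and Sdf2l1, were also lower. Hspa5 (chromosome 2, 34627609 to 34632049) had 52457 and 55150.4 in KO and 67905 and 67046 in WT. The log2 fold change was -0.33 ± 0.05 (limma adjusted p = 0.00785), with the 2 groups clearly apart. Hyou1 (chromosome 9, 44187572 to 44200452) encodes a large Hsp70 relative that exchanges nucleotide on BiP. Its counts were 11731 and 12291 in KO and 15856 and 15351 in WT, a log2 fold change of -0.38 ± 0.05 (limma adjusted p = 0.0062).

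Sdf2l1 (chromosome 16, 17130230 to 17132476), which encodes a partner of BiP and its J-domain proteins, had the largest difference of the 10 genes. It was also the least abundant, with 1883 and 2082 in KO against 3312 and 3322 in WT. These values rest on 2485 and 2523 reads in KO and 2557 and 2724 in WT. KO stood at 59.8% of WT (log2 -0.74 ± 0.07, limma adjusted p = 0.0029). Sdf2, a related gene that ER stress is not known to induce, had 1761 and 1883 in KO and 1830.02 and 1767 in WT and was not called (log2 0.02 ± 0.08). It was listed among the co-chaperones and is given here, outside the naming rule, because of its relation to Sdf2l1.

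Hsp90b1 encodes GRP94, the ER member of the Hsp90 family, which folds integrins and Toll-like receptors. The table merges it with the pseudogene 1810014B01Rik, which overlaps it on the other strand, on chromosome 10 from 86148271 to 86168189. The merged locus had 51843 and 47930.1 in KO and 68143 and 63806 in WT. The replicates were further apart than for most of these genes, yet both KO libraries were lower (log2 -0.40 ± 0.06, limma adjusted p = 0.00851).

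Of the 3 disulfide isomerases among the 10 genes, Pdia4 and Pdia6 had estimates further from 0 than that of Pdia3, with 95% intervals that overlapped it. Pdia4 (merged with the microRNA gene Mir704, chromosome 6, 47746139 to 47763511) had 7801 and 7715 in KO, against 12242 and 11861 in WT. The KO replicates were nearly equal, and KO was at 64.4% of WT (log2 -0.64 ± 0.05, limma adjusted p = 0.00165). Pdia6 (chromosome 12, 17273400 to 17331536) was merged with the proton pump subunit gene Atp6v1c2, and its reads cannot be divided from those of that gene. That locus had 14705 and 15146 in KO and 21280.3 and 21636 in WT, a log2 fold change of -0.52 ± 0.04 (limma adjusted p = 0.00202).

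Xbp1 (chromosome 11, 5420969 to 5425875) was the exception. It had 8979 and 9239 in KO and 9377 and 9237 in WT, so the groups overlapped. The log2 fold change was -0.03 ± 0.05 (limma adjusted p = 0.669), with a 95% interval of -0.15 to 0.08. The intervals of all 9 chaperones lay below that of Xbp1, narrowly so for Canx, whose upper bound was -0.1504 against a lower bound of -0.1462 for Xbp1. Counts per locus do not separate the spliced from the unspliced form of Xbp1, so IRE1 activity was not measured here. Dividing each chaperone by Xbp1 within a library removes the scaling between libraries. For Calr this ratio was 8.74 and 8.04 in KO and 12.0 and 12.01 in WT, and for Sdf2l1 it was 0.21 and 0.225 in KO and 0.353 and 0.36 in WT. In 9 of 9 chaperones both KO ratios were below both WT ratios, as they were for 29.5% of all tested loci. The ratios share their denominator, and an exact two-sided permutation test of 2 against 2 libraries cannot give a p below 0.333.

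**Figure D3:**
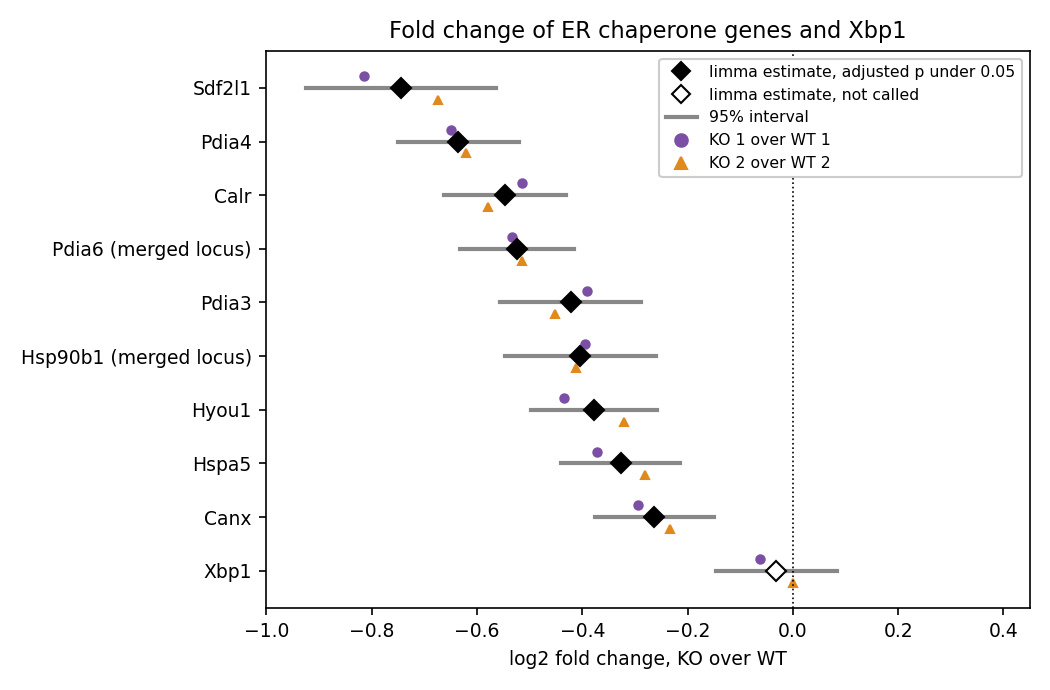
Log2 fold change of KO over WT for each gene on the horizontal axis, with the limma estimate (diamond, filled where the adjusted p is under 0.05), its 95% interval (grey line) and the value within each replicate pair (circle and triangle). The 9 chaperones lie between -0.74 and -0.26 with both pairs below 0, and the Xbp1 estimate of -0.03 has an interval that spans 0.

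The differences were similar in both replicate pairs. Within the first pair, where both libraries had high Xist, the 9 chaperones ranged from -0.81 (Sdf2l1) to -0.29 (Canx). In the second pair they ranged from -0.67 (Sdf2l1) to -0.23 (Canx). Calr gave -0.52 and -0.58, and Xbp1 gave -0.06 and 0.0003, in the first and second pair. Replicate SDs were at most 7.08% of the group mean for any of the 10 genes. Leaving out WT replicate 1 kept all 9 estimates below 0 but left 5 genes called: Hyou1, Hsp90b1, Hspa5 and Canx then had limma adjusted p-values of 0.0528, 0.0579, 0.0627 and 0.092. Canx was also lost without WT replicate 2 (limma adjusted p = 0.0966), and calls over all loci fell in those fits too, to 266 and 272 lower loci.

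Per length, Calr led the group, with the caveat that the isoforms present are not known from these counts. Reads per kilobase of principal transcript and 1000000 reads averaged 553 ± 20.9 for Calr in KO and 844 ± 9.95 in WT (SD, n = 2 each). On the same scale the Hsp90b1 locus had 279 ± 15.3 in KO and 386 ± 19.5 in WT. Pdia3 (233 ± 12.9) and Hspa5 (232 ± 8.39) followed and did not differ beyond their spread in KO, while in WT Pdia3 had 326 ± 9.97 and Hspa5 304 ± 3.94. Canx had 140 ± 5.33 in KO and 176 ± 0.567 in WT, and the Pdia6 locus had 108 ± 2.35 in KO and 163 ± 1.26 in WT. In KO, Xbp1 (67.6 ± 1.42) stood above Pdia4 (51.1 ± 0.362), and in WT, Pdia4 (83.1 ± 2.19) stood above Xbp1 (72.3 ± 1.05). Hyou1 (42.3 ± 1.43 in KO, 57.5 ± 1.54 in WT) and Sdf2l1 (28.3 ± 2.02 in KO, 49.5 ± 0.0852 in WT) were lowest. The 10 genes together took 0.485% and 0.478% of the single-locus reads in KO and 0.682% and 0.664% in WT. Values in this paragraph are scaled by total single-locus reads, unlike the normalised counts. With that scaling (CPM) the median log2 fold change over all tested loci was -0.06, against -0.01 with the normalised counts. On the normalised counts the 10 genes together stood at 74.9% of WT. Xbp1 was not called with either scaling.

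Beyond these 10 genes, 7 lists of other ER genes held 164 tested loci, of which 30 were lower and 18 higher. That is 18.3% lower, against 8.97% of all tested loci, and 11.0% higher, against 11.9%. With WT replicate 1 or WT replicate 2 left out, 3 were lower in both cases, and 2 and 6 were higher.

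In the list of co-chaperones, prolyl isomerases and glycoprotein quality control, 10 of 26 loci fell and 1 rose, with a median of -0.18. That is 38.5% lower, against 8.97% of all tested loci, and 3.85% higher, against 11.9%. The locus Fkbp14+Plekha8, which holds an ER prolyl isomerase gene, had 193 and 113 in KO and 374 and 401 in WT (log2 -1.39 ± 0.27). Fkbp9 fell by 0.63, and Lman1, a cargo receptor for glycoproteins, by 0.37. Dnajb9, a J-domain partner of BiP that is a known target of spliced XBP1, was the 1 that rose, with 7102 and 6646 in KO and 5166 and 5465 in WT (log2 0.37 ± 0.06, limma adjusted p = 0.0118). The lower count of this list was 0 without WT replicate 1 and 1 without WT replicate 2, and the higher count was 0 without WT replicate 1.

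Genes of protein entry into the ER (signal recognition, the Sec61 channel, signal peptidase and oligosaccharyltransferase) showed 9 of 34 loci lower and 0 higher. Their median was -0.11, with 26.5% lower, against 8.97% of all tested loci, and 0% higher, against 11.9%. Krtcap2, an oligosaccharyltransferase subunit gene, had 2131 and 1948 in KO and 2682 and 2727 in WT (-0.41 ± 0.07). Srprb, which encodes a subunit of the signal recognition particle receptor, fell by 0.40, and Ostc and Srp14 both fell by 0.31. The lower count was 0 with either WT replicate left out.

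The other ER oxidoreductases went both ways, with 3 of 19 lower and 4 higher and a median of -0.09. In shares, 15.8% were lower and 21.1% higher, against 8.97% and 11.9% of all tested loci. Pdia2, known mainly as a pancreatic isomerase, had 944 and 975 in KO and 328 and 388 in WT (log2 1.43 ± 0.13, limma adjusted p = 0.00224). Qsox1, a sulfhydryl oxidase gene, rose by 0.47 ± 0.07. Creld2, a stress-induced isomerase gene, fell to 1683 and 1668 in KO, against 2345 and 2592 in WT (-0.56 ± 0.08), and the merged locus with Txndc11 fell by 0.47. P4hb, the founding disulfide isomerase gene, had 56416 and 55759 in KO and 60558 and 55301 in WT and was not called (-0.05 ± 0.06). It is outside the naming rule. Leaving out WT replicate 1 gave 1 lower and 2 higher, WT replicate 2 gave 1 and 1, and KO replicate 1 gave 5 lower.

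The list for the unfolded protein response and the integrated stress response holds sensors, transcription factors, their targets and translation factors. Of its 24 loci, 6 were higher and 2 lower, with a median of 0.01. That is 25% higher and 8.33% lower, against 11.9% and 8.97% of all tested loci. Sesn2 (merged with AK155592), a stress-induced gene that restrains mTORC1, had 1221 and 899 in KO and 558 and 663 in WT (0.78 ± 0.17). Ppp1r15a, whose product GADD34 directs dephosphorylation of eIF2 alpha, rose by 0.58 ± 0.09, and Asns, the asparagine synthetase gene, by 0.49 ± 0.10. Eif2ak2, the interferon-inducible kinase PKR, fell by 0.77.

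Chosen outside the rule for their role, Atf4 had 20417 and 19646 in KO and 15143 and 16188 in WT and rose by 0.36 ± 0.05 (limma adjusted p = 0.0089). The genes of the 3 sensors were not called. Their log2 fold changes were -0.19 ± 0.07 for Ern1, 0.18 ± 0.05 for Eif2ak3 and 0.005 ± 0.05 for Atf6. Among the 16 loci of this list not called were also Ddit3 (merged with Mars), Trib3 and Chac1. These gave -0.03 ± 0.10, -0.39 ± 0.26 and 0.16 ± 0.25. The higher count of this list was 0 without WT replicate 1, and its lower count was 1 without WT replicate 1, WT replicate 2 or KO replicate 1.

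ER-associated degradation showed 1 of 27 loci lower and 2 higher, with a median of 0.01. Both shares, 3.70% and 7.41%, were under the 8.97% lower and 11.9% higher of all tested loci. Derl2, a channel component, had 2378 and 2389 in KO and 3084 and 3064 in WT (-0.37 ± 0.06), and Herpud2 (merged with AK043046) rose by 0.28. All 3 calls were lost with either WT replicate left out, and the higher count was 4 without KO replicate 1.

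In the ER calcium list 3 of 17 fell and 4 rose, with a median of -0.13. These are 17.6% lower and 23.5% higher, against 8.97% and 11.9% of all tested loci. The reticulocalbin genes Rcn3 (merged with AK021299) and Rcn2 fell by 0.55 and 0.41. Among inositol trisphosphate receptor genes, 2 moved in opposite directions, with Itpr2 at 3646 and 2587 in KO and 1777 and 2075 in WT (0.68 ± 0.17), and Itpr3 (merged with AK131746) at 3160 and 3374 in KO and 4122 and 4711 in WT (-0.43 ± 0.08). Without WT replicate 1 the list had 1 lower and 0 higher, and without WT replicate 2 it had 0 of each.

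Of the KDEL receptors, which return escaped ER proteins, and the COPII export coat, 2 of 17 loci fell and 1 rose. The median was -0.08. These counts are 11.8% lower and 5.88% higher, near or under the 8.97% and 11.9% of all tested loci. Sec24d had 1824 and 1739 in KO and 2409 and 2319 in WT (-0.41 ± 0.07), a locus that merges Kdelr3 with the RNA helicase gene Ddx17 fell by 0.18, and Sec16b rose by 0.50. The lower count was 0 with either WT replicate left out, and the higher count was 0 without any 1 of the 4 libraries.

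**Figure D4:**
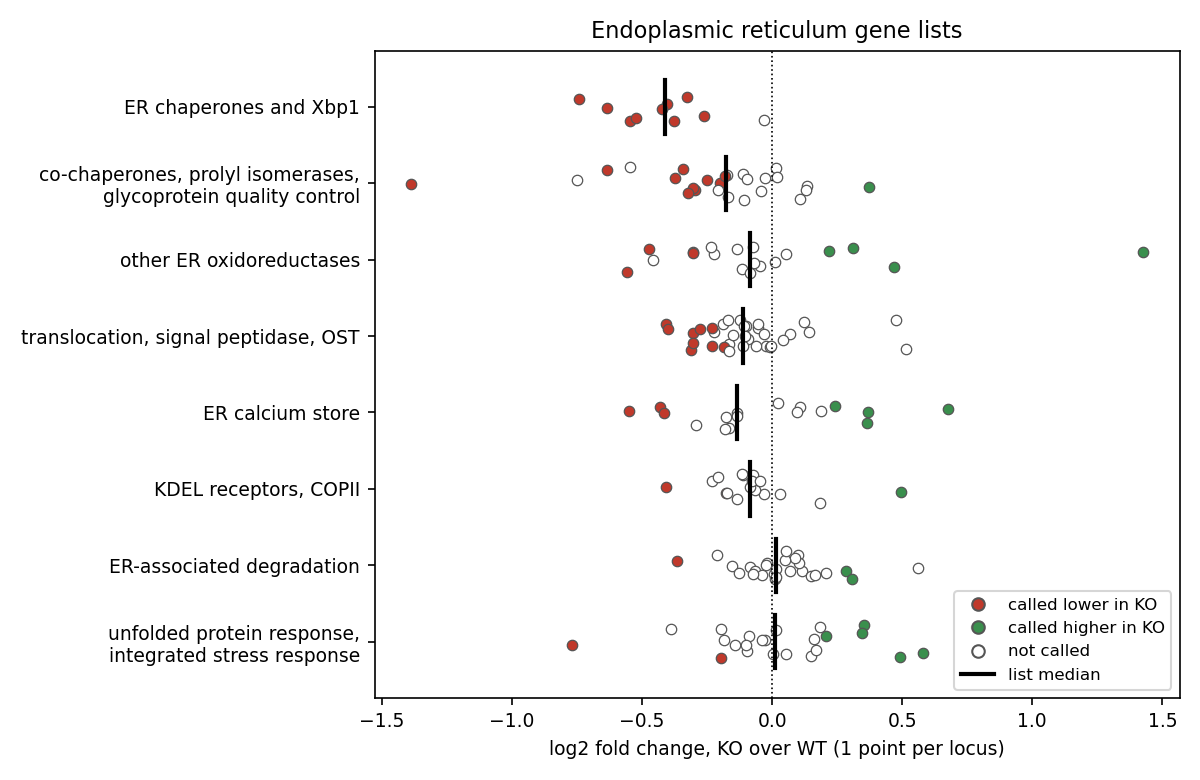
Log2 fold change of KO over WT for every tested locus of 8 ER gene lists, 1 point per locus, coloured where limma called it lower (red) or higher (green), with the list median as a black bar. The chaperone list has a median of -0.41, and the other medians lie between -0.18 and 0.01.

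Markers of several cell types moved with genotype. Of the neutrophil list 10 of 11 loci rose and 0 fell, where 11.9% of all tested loci were called higher and 8.97% lower. The most abundant were Ngp (706265 and 618774 in KO, 315865 and 382974 in WT), Ltf and S100a9. The summed level of that list was 2108178 and 1970453 in KO and 1047307 and 1168902 in WT. Primary granule genes, whose products are made in promyelocytes with a large ER, showed 0 of 6 called. Their summed level was 656707 and 561583 in KO and 756484 and 691283 in WT, and Mpo had 441863 and 370120.4 in KO and 525289 and 474770 in WT (-0.30 ± 0.10, limma adjusted p = 0.0747). Of the plasma cell list, another type with a large ER, 1 of 6 tested loci was called: Sdc1 had 351 and 271 in KO and 561 and 618 in WT. Of the 5 not called, 3 had estimates above 0 (Igj, Derl3 and Prdm1) and 2 below, Mzb1 (-0.77 ± 0.24) and Fkbp11 (-0.75 ± 0.21). Mzb1, the most abundant of the list, had 3181 and 1827 in KO and 4213 and 4030 in WT. Prdm1, the gene of the plasma cell regulator Blimp-1, which is named after its values were seen, had 117 and 107 in KO and 60.9 and 62.2 in WT, so both KO libraries were higher (0.86 ± 0.23, limma adjusted p = 0.05004). The summed level of the list was 4640 and 3915 in KO and 5941 and 6279 in WT, with no marker at 0, and 2 of its genes, Fkbp11 and Derl3, also belong to the ER lists.

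B lineage markers were lower in 4 of 8 cases and higher in 0, with summed levels of 48387 and 34494 in KO and 63230 and 62922 in WT. The erythroid list had 2 of 7 higher and 0 lower, with summed levels of 49852 and 57392 in KO and 32395 and 37156 in WT. Immediate-early and handling-responsive genes had 10 of 12 higher and 2 lower, with summed levels of 199571 and 233399 in KO and 112641 and 123136 in WT. The 2 lower were Hspa1a (-1.48 ± 0.28) and Hspa1b (-1.63 ± 0.29). Over all tested loci, 11.9% were called higher and 8.97% lower. The part of these cell types and of cell handling in the lower chaperone levels was not tested.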

How the data were processed

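The authors aligned reads with STAR 2.3.1t to mm9, per the submitters' processing notes. Read counter, annotation and strand handling were not given in the sources used here. Deposited signal values are read counts per locus scaled by 1 factor per library: in each library 100% of values were integer multiples of its lowest nonzero value (tolerance 0.001). A single read counted for 0.758 and 0.825 in KO and 1.30 and 1.22 in WT. They are called normalised read counts. Dividing by the step recovered the reads.

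Single-locus rows reaching 10 in 2 or more libraries were tested with limma 3.58.1 (mean-variance trend, log2(value + 1), genotype only, R 4.3.3), with Benjamini-Hochberg adjustment over 13764 loci and a threshold of 0.05. Fold changes are on that scale, ± SE. Rows joining neighbouring loci (4893 of 22849) were left out. Alternatives were edgeR 4.0.16 and DESeq2 1.42.0 on recovered reads, other scalings, pseudocounts and filters, a replicate block and each library left out. The edgeR test with TMM scaling called 2839 loci. The fit was tested on simulated data.

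The 10 genes and the lists were chosen with earlier results of these data known. Beyond the 10 genes, up to 4 called loci with the largest change were named per ER list and up to 3 of the most abundant per marker list. Some loci that these rules gave are not reported here. Transcript lengths came from GENCODE M21 and promoters from RefSeq (GRCm38.p6). Counting errors are small: each gene had 2485 to 103505 reads per library.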

Additional observations from a re-analysis of the deposited data

Results flagged for a closer look

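Some rows of the table join a pair of neighbouring loci and were not used in the comparisons. Among joined rows that hold one of the 10 genes, a row is given here where both KO libraries exceeded both WT libraries and 3 reads. The row joining Catsper2 and Pdia3 averaged 8.29 normalised counts in KO, from 11 and 10 reads in KO and 2 and 1 in WT. The KO libraries were deeper, and no test was made on so few reads.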

How the results depend on the processing

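Over 14 alternatives the log2 fold change of all 10 genes stayed below 0, and Calr ranged from -0.61 to -0.51. The count of lower chaperones was 9 in 12 of them, and 5 to 9 with 1 library left out. The median over all 10 genes, Xbp1 included, was -0.48 with CPM scaling and -0.46 with upper-quartile scaling (-0.47 to -0.38 with 1 library left out). Lower loci in all numbered 2049 with CPM and 1889 with upper-quartile scaling, so that 39.6% and 42.7% of calls were higher, against 57.0%. With 1 library left out, 603 to 1714 were higher and 266 to 1542 lower. In the ER lists together, CPM and upper-quartile scaling gave 53 and 49 lower, and leaving out 1 library gave 2 to 20 higher and 3 to 32 lower. Lower counts with CPM and upper-quartile scaling were 5 and 5 for oxidoreductases, 3 and 3 for degradation, 15 and 14 for protein entry, and 8 and 8 for calcium. KDEL and COPII had 5 lower with CPM, 1 with edgeR and RLE, and 0 higher with CPM, upper-quartile scaling or no filter. DESeq2 gave 2 lower degradation and 5 lower calcium genes, and CPM 1 higher degradation gene. With 1 library left out, the ranges of higher and lower counts were 1 to 4 and 1 to 5 for oxidoreductases, 0 to 1 and 0 to 10 for co-chaperones, 0 to 7 and 1 to 2 for stress response, 0 to 4 and 0 to 1 for degradation, 0 to 1 and 0 to 10 for protein entry, 0 to 4 and 0 to 4 for calcium, and 0 to 0 and 0 to 3 for KDEL and COPII. Igj, not called, ranged from -0.30 to 0.69 with 1 library left out, and was below 0 without KO replicate 2 (-0.30) and without WT replicate 1 (-0.25). The cause was not tested.

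Replicate numbers are shared between genotypes but the labels tie no pairs. Deviations of same-numbered libraries correlated at 0.246 over all tested loci and at 0.508 over those with a mean value of at least 100. With the replicate block 9 chaperones were lower, 2 degradation genes were lower and 3439 loci were called (2875 without it). Counting only loci with a mean value of at least 1000 was added after seeing the data. It could not change the count of 9, because every one of these genes exceeds that level.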

Other observations

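Outside the 10 genes, an exact ERSE match was found in the promoter windows of 32 further genes, and 14 of these had a tested locus. Of the 14, 2 fell and 0 rose, where 8.97% of all tested loci were called lower and 11.9% higher. Their median log2 fold change was -0.07 (-0.01 over all tested loci). The 2 were Creld2 (-0.56 ± 0.08), described above, and Dnajc3 (-0.25 ± 0.06), which encodes a J-domain co-chaperone of BiP and had 9468 and 9509 in KO and 11774 and 10830.3 in WT. Of the 12 that did not pass the limma threshold, 6 had estimates above 0, among them the degradation gene Derl3 (0.11 ± 0.23) and the acetyl-CoA carboxylase gene Acacb (0.42 ± 0.19), and 6 below 0. Those below included the ER-associated degradation gene Syvn1 (merged with Mrpl49, -0.13 ± 0.05), the mannosyltransferase gene Alg12 (-0.30 ± 0.10) and the oxidase gene Ero1lb (-0.07 ± 0.18). These were chosen after their values were seen.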
